A study of Mus musculus with 39 samples.

Results

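The genes described here are 9 myelin genes of mature oligodendrocytes, Mbp, Mobp, Mal, Mog, Mag, Cldn11, Tspan2, Cnp and Ugt8a, out of 24421 genes in the RNA tables. They had been picked by name after their levels in INTACT-nuclei and FANS-nuclei were known, so their technique differences and their joint variation are given as descriptions without a test. All 9 had reads in all 31 RNA libraries, with 29 reads at the least (Mog in 1 batch 3 FANS library), and all 9 passed the filter on low values in each batch.

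Nuclei were isolated from the neocortex of male and female mice, 13–16 weeks of age, that carried an Arc-driven tamoxifen-inducible Cre (Arc creERT2, TG/WT) and the reporter R26-CAG-Sun1-sfGFP-Myc, on 1 allele or on both (which of these is not given per library). The Cre labels cells in which the activity-induced gene Arc is on when tamoxifen is given, here followed by a social interaction test, and the reporter puts sfGFP on the nuclear envelope. Every group came from this line and treatment. The groups compared are those of how sfGFP+ nuclei were collected, with antibody-coated beads (INTACT) or by fluorescence-activated nuclei sorting (FANS). RNA-seq was made from 10000 nuclei per library in 3 batches, each from its own biological source: there were 4 FANS-nuclei and 4 INTACT-nuclei libraries from batch 1, 7 against 4 from batch 2, and 7 against 5 from batch 3. Libraries of one batch are aliquots of 1 source, so p-values within a batch measure only the spread between libraries, which may be technical. ATAC-seq was made from 50000 nuclei per library, with 3 technical replicates per technique of 1 source.

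Myelin is the multilayered membrane that oligodendrocytes wrap around axons. Its compact layers are held together by basic and other membrane proteins, its outer and axon-facing surfaces carry immunoglobulin-family adhesion proteins, and tight junctions seal it along its spiral. Mature oligodendrocytes switch these genes on together, under transcription factors that include SOX10 and MYRF, and neurons do not make myelin, which is why myelin RNA is a common measure of oligodendrocyte nuclei in a neuronal preparation. An exception is the Golli start of Mbp, which lies upstream of the classic start and is known also from neurons; the counts do not separate these kinds of transcript.

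Promoter windows of 300 bases around annotated start sites (RefSeq, GRCm38.p6) were read for 8 of the 9 genes; for Mbp none was read. Those of Mobp, Mag, Mog and Mal are printed because they lie at the opposite ends of what follows: Mobp had the densest run of one SOX motif, Mag held both a SOX and a MYRF motif, Mog had a high and narrow ATAC peak on its start site, and Mal had the largest technique difference in RNA and the only missing ATAC peak. They span chr9:120149492-120149791 (+), chr7:30914873-30915172 (−), chr17:37023349-37023648 (−) and chr2:127656646-127656945 (−), and capitals mark matches, on either strand, to the motifs named after them.
Mobp: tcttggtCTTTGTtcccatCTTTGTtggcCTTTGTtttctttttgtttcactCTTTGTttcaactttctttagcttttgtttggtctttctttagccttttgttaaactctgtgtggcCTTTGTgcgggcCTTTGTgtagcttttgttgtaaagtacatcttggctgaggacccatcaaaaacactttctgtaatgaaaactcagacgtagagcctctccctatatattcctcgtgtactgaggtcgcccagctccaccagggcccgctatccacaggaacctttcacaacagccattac
Mag: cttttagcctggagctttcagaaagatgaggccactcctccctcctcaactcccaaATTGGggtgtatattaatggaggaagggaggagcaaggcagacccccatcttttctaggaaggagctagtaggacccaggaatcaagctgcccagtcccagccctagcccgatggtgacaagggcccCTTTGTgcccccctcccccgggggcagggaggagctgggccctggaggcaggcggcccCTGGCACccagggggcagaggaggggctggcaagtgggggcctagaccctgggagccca
Mog: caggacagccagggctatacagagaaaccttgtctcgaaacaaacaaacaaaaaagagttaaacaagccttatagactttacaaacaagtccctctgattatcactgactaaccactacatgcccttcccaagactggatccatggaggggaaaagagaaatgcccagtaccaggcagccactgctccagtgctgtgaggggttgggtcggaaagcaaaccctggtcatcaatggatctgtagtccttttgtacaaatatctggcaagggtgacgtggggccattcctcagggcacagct
Mal: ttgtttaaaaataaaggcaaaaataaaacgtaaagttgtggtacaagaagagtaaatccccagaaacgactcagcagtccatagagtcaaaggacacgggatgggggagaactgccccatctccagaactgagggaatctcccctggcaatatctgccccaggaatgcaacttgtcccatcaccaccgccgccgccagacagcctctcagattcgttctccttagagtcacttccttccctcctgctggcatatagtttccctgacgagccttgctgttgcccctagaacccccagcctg

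The SOX motif ACAAAG, which the Mobp and Mag windows carry as its reverse complement, was found in 5 of the 11 windows of the 8 genes, 1 each of Mobp, Tspan2 and Cnp and 2 of the 3 of Mag, against 18.7% of all 32851 promoter windows. Those 2 Mag windows overlap and hold the same site, and by gene the count was 4 of 8. Mobp held 6 copies, all upstream, with first bases from −243 to −120 of the start site. The MYRF motif CTGGCAC was found in 3 of the 11, at Mag and Cnp (5.01% of all windows). Here too the 2 overlapping Mag windows hold the same site, and by gene the count was 2 of 8. In the printed Mag window the MYRF motif began 9 bases upstream of the start site, downstream of a SOX motif at −67. The other SOX motif searched, ACAATG (12.6% of all windows), and TATAAA (13.6%) were found in none of the 11. CCAAT, which starts at −194 of Mag on the other strand, was found in 3 of the 11, at Mag and Cldn11 (37.4% of all windows), and GGGCGG in 3, at Cldn11, Ugt8a and Cnp (35.7%). The Mog and Mal windows held no match to any of the 6 motifs. No 2 of the searched motifs overlap in the printed windows. GC content was 43.3% in the Mobp window, 48.3% in Mog, 51.0% in Mal, 63.0% in Mag and 78.3% in Ugt8a, against a median of 52.7% over all windows. A match is a string of letters and not a measured site.

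The libraries held 4205665 to 11028713 reads on genes. In batch 1 depth went with technique, from 4853224 to 6066759 reads in FANS libraries and from 8621143 to 11028713 in INTACT libraries. So did the share of reads that the counting assigned to no gene (no-feature reads), 79.4–81.7% in FANS and 71.3–72.7% in INTACT. The feature type counted is not given in the sources used here, so this share may hold reads within genes, such as intronic ones. In batches 2 and 3 that share was 79.4–81.6% and 80.0–85.1% in FANS and 77.4–78.9% and 81.9–83.0% in INTACT. The part of these library differences in the results was not tested. The study describes RNA of higher quality in batch 1 than in batches 2 and 3. RNA quality and biological source therefore cannot be told apart where batch 1 is set against another batch. Sun1, the gene of the reporter's tag, averaged 2079 normalized counts in FANS-nuclei and 2202 in INTACT-nuclei of batch 1, 1826 and 1880 in batch 2, and 1352 and 1302 in batch 3, and was not called in any batch. In batch 1, Slc17a7, Rbfox3 and Arc moved with technique by less than the 1.5-fold needed for a call. Slc17a7 (vesicular glutamate transporter) was higher in INTACT-nuclei, at 1643–1860 normalized counts in FANS and 2390–2584 in INTACT libraries (log2 fold change 0.50, adjusted p = 1.92e-08, limma), and Rbfox3 (NeuN) lower, at 1206–1386 and 922–1029 (−0.41, adjusted p = 1.6e-06). Arc was higher there by 0.20 (adjusted p = 0.00329, limma). In batches 2 and 3 these 3 genes had log2 fold changes between −0.11 and 0.18, none called. The part of these differences in the myelin results was not tested. The labels call all these nuclei activated neuronal nuclei; neuronal genes were present at high levels, and the 9 myelin genes were present beside them in every library.

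The first question was whether the same source of nuclei gave more or less myelin RNA after INTACT than after FANS. Normalized counts are reads divided by one size factor per library within a batch. A gene was called when its adjusted p (limma, Benjamini-Hochberg) was below 0.05 and its change at least 1.5-fold. In batch 1, 6 of the 9 genes were called higher in INTACT-nuclei (Mal, Cldn11, Mog, Mag, Tspan2 and Cnp), where 4.03% of the 15114 tested genes were. In batch 2 it was 4 of 9 (Mal, Cldn11, Tspan2 and Ugt8a; 0.0941% of all tested genes) and in batch 3 none of 9 (0.0139%), also by edgeR and DESeq2. These 2 shares rest on 14 and 2 genes, which became 5 to 35 and 0 to 8 with 1 library left out. The batch 2 count was 2, Cldn11 and Mal, by edgeR, by DESeq2, with 75th percentile scaling and with the replicate block. None was called lower in any batch (3.94%, 0.0336% and 0.346% of all tested genes in batches 1, 2 and 3), and none was lower in every INTACT library (16.5%, 1.4% and 0.589%). The members had been selected with this contrast in view, so nothing is read from these counts. The median log2 fold change of the 9 genes, INTACT over FANS, was 0.62 in batch 1, 0.53 in batch 2 and 0.21 in batch 3, against 0.01, 0.00 and 0.00 over all genes tested. It was above 0 for 9, 9 and 8 of the genes, against 50.9%, 49.8% and 48.9% of all tested genes. In RNA from bulk nuclei, fewer nuclei of a type and less RNA per nucleus cannot be told apart.

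**Figure D1:**
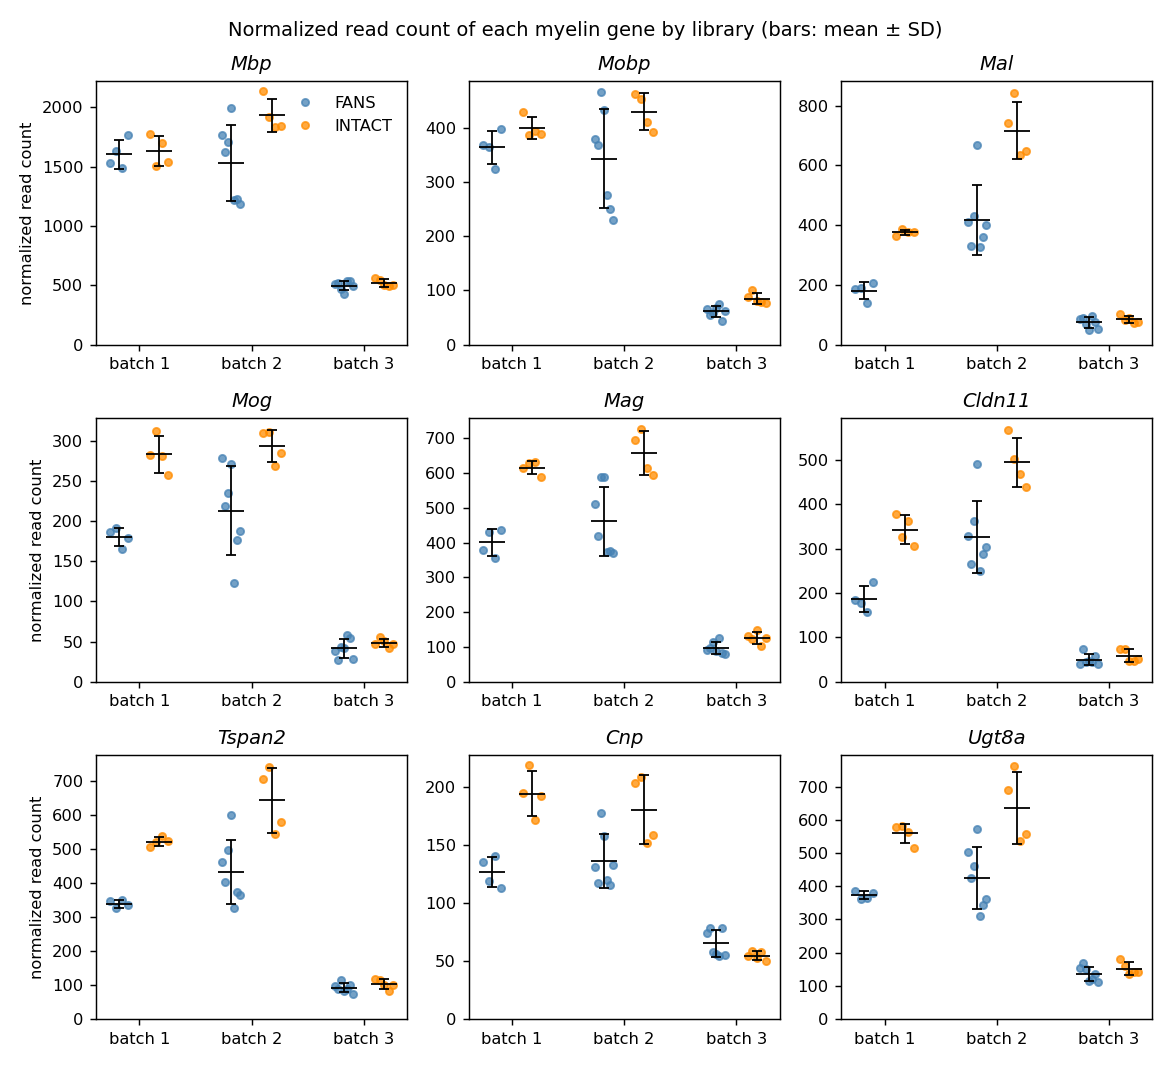
Normalized counts (vertical axis, linear, from 0) of each of the 9 myelin genes in FANS (blue) and INTACT (orange) libraries of batches 1, 2 and 3, each point 1 library and each bar a group mean ± SD. INTACT points of Mal in batch 1 (364 to 385) lie above the FANS points (139 to 206), while those of Mbp lie among them.

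Mbp (chr18:82475123-82585637, + strand; mm10, as for all genes here), myelin basic protein, binds the cytoplasmic faces of the compact layers. It was the most abundant of the 9. In batch 1 its normalized counts were 1528, 1633, 1489 and 1762 in FANS libraries and 1773, 1509, 1696 and 1542 in INTACT libraries. In batch 2 FANS libraries ranged from 1184 to 1993 with a median of 1623, and INTACT libraries gave 2135, 1916, 1834 and 1839. In batch 3 FANS libraries ranged from 429.9 to 538 with a median of 508, and INTACT libraries gave 564, 542, 504, 491 and 502. The techniques overlapped in every batch: the log2 fold change of Mbp was 0.02 ± 0.06 (SE) in batch 1, 0.36 ± 0.10 in batch 2 (0.21 with the replicate block) and 0.06 ± 0.06 in batch 3. In batch 1 the value lay below 0 in 2 of the 15 settings run.

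Mobp (chr9:120149742-120181488, +) encodes another basic protein of compact myelin. Its batch 1 counts were 369, 365, 324 and 397 in FANS and 430.0, 386, 394 and 388 in INTACT libraries. Batch 2 FANS libraries spanned 231 to 465 (median 369) and INTACT libraries gave 463, 453, 412 and 392. In batch 3 the FANS libraries lay between 44.3 and 74.4 (median 62.2) and the INTACT libraries at 88.5, 101, 81.2, 79.0 and 76.1. Mobp was thus the only one of the 9 whose techniques did not overlap in batch 3 (0.997% of all tested genes there were higher in every INTACT library), and its change was largest there, with 0.14 ± 0.07, 0.37 ± 0.13 and 0.48 ± 0.13 in batches 1, 2 and 3. With the replicate block the batch 2 value was 0.11.

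Mal (chr2:127633226-127656695, −) encodes a raft-associated proteolipid of the myelin membrane. Batch 1 counts were 185, 190.1, 139 and 206 in FANS against 364, 385, 379 and 376 in INTACT libraries. In batch 2 FANS libraries ran from 327 to 669.6 (median 400.4) and INTACT libraries gave 741, 843, 636 and 647. In batch 3 FANS libraries ran from 49.7 to 95.4 (median 76.2) and INTACT libraries gave 104, 82.3, 89.3, 72.9 and 77.1. Mal had the largest log2 fold change of the 9 in batches 1 and 2, at 1.07 ± 0.10 and 0.81 ± 0.12, and 0.21 ± 0.15 in batch 3. In batch 2 a single FANS library, replicate 5 at 669.6, reached into the INTACT range, and the other FANS libraries stayed at or below 430.1.

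Mag (chr7:30899175-30914922, −) and Mog (chr17:37010740-37023398, −) encode immunoglobulin-family proteins of the myelin surface, Mag facing the axon and Mog on the outermost layer. In batch 1 Mag counts were 379, 432, 356 and 437 in FANS and 616, 629, 631 and 589.6 in INTACT libraries. In batch 2 the FANS libraries of Mag ran from 372 to 589 (median 420.5) and the INTACT libraries were 695, 726, 614 and 596. In batch 3 they ran from 78.7 to 126 (median 92.8) against 131, 122, 149, 104 and 126. Mag was the only member that was higher in every INTACT library than in every FANS library in both batch 1 and batch 2 (17.1% and 1.59% of all tested genes were), with changes of 0.62 ± 0.07, 0.53 ± 0.11 and 0.38 ± 0.12. The Mag change in batch 2 fell short of the fold threshold. Mog counts in batch 1 were 186, 191, 165 and 179 in FANS against 282, 312, 280.3 and 257 in INTACT libraries. In batch 2 Mog ran from 122 to 279 in FANS (median 218), with 309.5, 310.3, 269 and 285 in INTACT libraries, and in batch 3 from 27.0 to 58.7 (median 42.3), with 47.4, 55.5, 51.1, 42.1 and 46.7. Mog separated the techniques in batch 1 but not in batches 2 and 3, and its changes were 0.65 ± 0.09, 0.51 ± 0.14 (0.31 with the replicate block) and 0.26 ± 0.18.

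Cldn11 (chr3:31149920-31164326, +), claudin 11, forms the tight junctions of central myelin, and Tspan2 (chr3:102734770-102772310, +) encodes a tetraspanin of oligodendrocyte membranes. Cldn11 counts in batch 1 were 184, 178, 157 and 226 in FANS and 379, 326, 363 and 306 in INTACT libraries. In batch 2 FANS libraries lay between 249 and 491 (median 304) and INTACT libraries at 568, 503, 469 and 440.0. In batch 3 FANS libraries lay between 40.7 and 74.1 (median 44.0) and INTACT libraries at 74.1, 74.0, 47.1, 47.2 and 51.8. Cldn11 was second to Mal in batches 1 and 2, with 0.89 ± 0.10 and 0.63 ± 0.12, and gave 0.23 ± 0.16 in batch 3, where 4 of the 5 INTACT libraries sat inside the FANS range and the other just above its highest library. Tspan2 counts in batch 1 were 347, 325, 350.2 and 335 in FANS and 504, 522, 537 and 523 in INTACT libraries. In batch 2 Tspan2 ran from 325 to 599.5 in FANS (median 403), with 707, 742, 544 and 579 in INTACT libraries, and in batch 3 from 72.9 to 115 (median 89.1), with 116, 114, 99.3, 83.2 and 100.5. Tspan2 was tight within groups in batch 1, with SDs of 11.7 around 339 and 13.2 around 521, and its log2 fold changes were 0.62 ± 0.06, 0.59 ± 0.11 and 0.16 ± 0.12. The start of Tspan2 overlaps that of an antisense gene, Tspan2os, and the strand setting of the counting is not given in the sources used here.

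Cnp (chr11:100574939-100581739, +) and Ugt8a (chr3:125865272-125938652, −) encode enzymes, the cyclic nucleotide phosphodiesterase of non-compact myelin and the galactosyltransferase that makes galactosylceramide, a main myelin lipid. Cnp counts in batch 1 were 135, 119, 140.4 and 113 in FANS and 195, 219, 171 and 192 in INTACT libraries. In batch 2 FANS libraries of Cnp ranged from 116 to 178 (median 130.5) and INTACT libraries gave 203, 208, 151 and 158. In batch 3 they ranged from 54.5 to 78.7 (median 58.0) against 54.6, 58.6, 52.2, 57.5 and 49.7. Cnp was the only member with a mean below that of FANS-nuclei in any batch, with changes of 0.61 ± 0.11, 0.41 ± 0.12 and −0.23 ± 0.13. Ugt8a counts in batch 1 were 386, 363, 364 and 381 in FANS and 578, 581, 563 and 517 in INTACT libraries. In batch 2 Ugt8a ran from 309.8 to 574 in FANS (median 424), with 692, 763, 536 and 557 in INTACT libraries, and in batch 3 from 112 to 168 (median 135), with 182, 159, 135, 142 and 141. Its changes were 0.58 ± 0.06, 0.60 ± 0.12 and 0.17 ± 0.11. Ugt8a in batch 1, at 1.497-fold with techniques that did not overlap, lay just outside the fold threshold, and Tspan2 in batch 2, at 1.503-fold, just inside it.

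**Figure D2:**
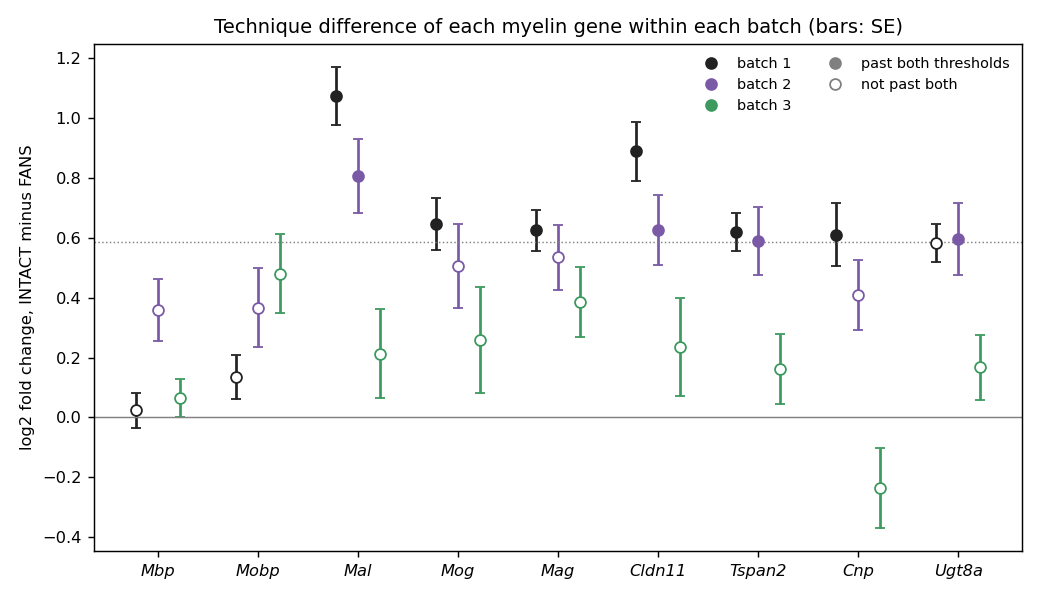
Log2 fold change of each myelin gene, INTACT minus FANS, in batches 1 (black), 2 (purple) and 3 (green), with its SE; filled points passed the adjusted p and the fold threshold, and the dotted line is the 1.5-fold threshold. Mal reaches 1.07 in batch 1, Cnp lies at −0.23 in batch 3, and Mobp is the gene with the largest value in batch 3 (0.48).

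In batch 2, where several fold changes lay close to the 1.5-fold threshold, the calls other than that of Mal changed with single libraries. Leaving out 1 library at a time, the count of members called there ran from 1 to 5: it was 1 without FANS replicate 6 or INTACT replicate 1, and 2 without FANS replicate 2, 7 or 8 or without INTACT replicate 2. Mal was called in each of these. The log2 fold changes themselves ran over all alternatives from 0.73 to 0.93 for Mal, 0.56 to 0.73 for Cldn11, 0.51 to 0.67 for Tspan2 and 0.50 to 0.67 for Ugt8a. In batch 1 the same procedure gave 5 to 7 and in batch 3 it gave 0 throughout.

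The mix of the 9 genes also differed between libraries. Mbp took 42.7% ± 1.00 (SD, n = 4) of the reads of the 9 genes in batch 1 FANS libraries and 33.1% ± 1.56 (n = 4) in INTACT libraries, and the groups did not overlap. Mal took 4.78% ± 0.53 and 7.65% ± 0.41 there, so that the ratio of Mal to Mbp normalized counts had a median of 0.12 in FANS-nuclei and 0.23 in INTACT-nuclei. In batch 2 the medians of this ratio were 0.27 and 0.35, with the highest FANS library at 0.338 and the lowest INTACT library at 0.347. In batch 3 they were 0.15 and 0.15 and the libraries overlapped. The share of Mbp in batch 2 was 35.8% ± 1.87 (n = 7) in FANS and 32.4% ± 1.85 (n = 4) in INTACT libraries, and in batch 3 it was 44.7% ± 2.54 (n = 7) and 42.3% ± 1.10 (n = 5).

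Because each batch was normalized on its own, levels were set across batches as RPM, reads per 1000000 reads on genes, as a description. The 9 genes together took 500.4 ± 37.9 RPM in FANS and 670.6 ± 20.6 in INTACT libraries of batch 1, and 692.9 ± 155.7 and 959.0 ± 93.8 in batch 2. They took only 218.9 ± 19.99 and 239.7 ± 21.7 in batch 3, where the highest library (265.7) lay below the lowest of batches 1 and 2 (452.9). The 34 other myelin genes moved with them, with means of 988.6 and 1349.9, 1248.1 and 1582.1, and 658.0 and 672.4 summed RPM in FANS and INTACT libraries of batches 1, 2 and 3. Astrocyte and excitatory neuron genes were not lower in batch 3: astrocyte genes summed to 1018.9–1335.7 RPM in batch 1, 1023.2–1457.8 in batch 2 and 1308.7–1748.2 in batch 3, and excitatory neuron genes averaged 1365.8 and 1345.2, 1495.5 and 1522.3, and 1613.7 and 1541.3 RPM. Arc, the gene that drives the labelling, was lower there too, at 64.1 RPM per kilobase of exon in batch 1 and 17.9 in batch 3 FANS libraries. Per kilobase of exon, Mobp went from 7.48 to 1.85 RPM between batch 1 and batch 3 FANS libraries, Cnp from 6.30 to 4.76, and Ugt8a from 13.1 to 7.03. Between INTACT libraries Mobp went from 8.38 to 2.55, Cnp from 9.87 to 3.95 and Ugt8a from 20.1 to 7.78.

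On that length-scaled level Mbp ranked first in each group. Exon length here is that of all curated transcripts of a gene together, such as 6718 bases for Mbp, 6491 for Mobp and 1707 for Mog. The ranks therefore depend on the annotation. In batch 1 FANS libraries Mbp stood at 31.8 RPM per kilobase, followed by Mag (19.8), Mog (14.1), Cldn11 (13.3), Ugt8a (13.1), Tspan2 (10.4), Mal (8.65), Mobp (7.48) and Cnp (6.30). Mog (SD 1.09), Cldn11 (SD 2.24) and Ugt8a (SD 0.54) were neighbours that did not differ beyond their spread. In batch 1 INTACT libraries Mag (31.04) came close to Mbp (33.0), Cldn11 (25.0) passed Mog (22.6), and Mal (18.4) passed Tspan2 (16.3).

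A wider list of 34 further myelin and mature oligodendrocyte genes was fitted with all genes, with p-values adjusted over all of them. The list was chosen with earlier results of these data known, so its counts describe these libraries and are no independent support. Of these, 8 of 33 tested genes were higher in INTACT-nuclei in batch 1, none of 34 in batch 2 and none of 32 in batch 3, where 4.03%, 0.0941% and 0.0139% of all tested genes were, and none was lower in any batch (limma). The list had a median log2 fold change of 0.46, 0.39 and 0.09 in batches 1, 2 and 3. Without the adjustment and the fold threshold, 23, 24 and 3 of these genes were higher at p below 0.05 (limma) and 0, 0 and 1 lower. The share of all tested genes past that unadjusted threshold is not given here, so nothing is read from these unadjusted counts. edgeR called 9, 0 and 0 higher and DESeq2 7, 0 and 0, and neither called one lower. Libraries did not overlap, with INTACT higher, for 16 of 33, 6 of 34 and 0 of 32, against 17.1%, 1.59% and 0.997% of all tested genes. Without FANS replicate 3 of batch 1 the count there was 5, and it ran from 5 to 10 over all left-out libraries.

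Membrane and cytoskeleton proteins of myelin made up 3 of the 8 batch 1 calls, of 14 tested. Opalin, a glycoprotein of the paranodal loops, averaged 65.1 ± 25.6 (SD, n = 4) normalized counts in FANS and 97.6 ± 5.95 (n = 4) in INTACT libraries, a log2 fold change of 0.65 ± 0.18 (adjusted p = 0.00591, limma). Cmtm5 rose by 0.84 and Ppp1r14a by 0.77 on the log2 scale. Of the genes of lipid and metabolic enzymes and carriers, 1 of 7 was called, Apod, a lipid-binding lipocalin, at 0.74 (adjusted p = 3.34e-06, limma). Of the junction and node genes, 1 of 5 was called, Hapln2, a link protein of the node matrix, at 0.60 (adjusted p = 1.12e-05, limma). Of other genes of mature oligodendrocytes, 3 of 7 were called: Gpr37, a receptor that restrains oligodendrocyte maturation, from 154 ± 27.7 to 299 ± 9.54 normalized counts, at 0.96 (adjusted p = 7.01e-08, limma), Gsn, the actin-severing gelsolin, at 0.64, and Trf, the iron carrier transferrin, at 0.59. Gpr37, Apod and Cmtm5 were called in batch 1 under every alternative run, while Trf, Hapln2, Opalin, Gsn and Ppp1r14a each lost the call under at least 1.

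In batch 2 the 3 largest changes on the list were those of Efhd1 (0.78, adjusted p = 0.198, limma), Nkx6-2 (0.77, adjusted p = 0.0749) and Klk6 (−0.76, adjusted p = 0.488), none past the threshold. In batch 3 they were those of Gjb1 (−0.66, adjusted p = 0.539), Ndrg1 (−0.58, adjusted p = 0.0809) and Efhd1 (−0.49, adjusted p = 0.642). Here too the batch 2 count moved with single libraries, from 0 to 4 without FANS replicate 5, the library with the highest myelin level of its group, 2 without FANS replicate 4, and 1 without FANS replicate 2 or INTACT replicate 4. Gpr37 and Opalin were each called in 3 of these fits and Nkx6-2 and Pllp in 1. In batch 3, Ndrg1 was called lower without FANS replicate 4.

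**Figure D3:**
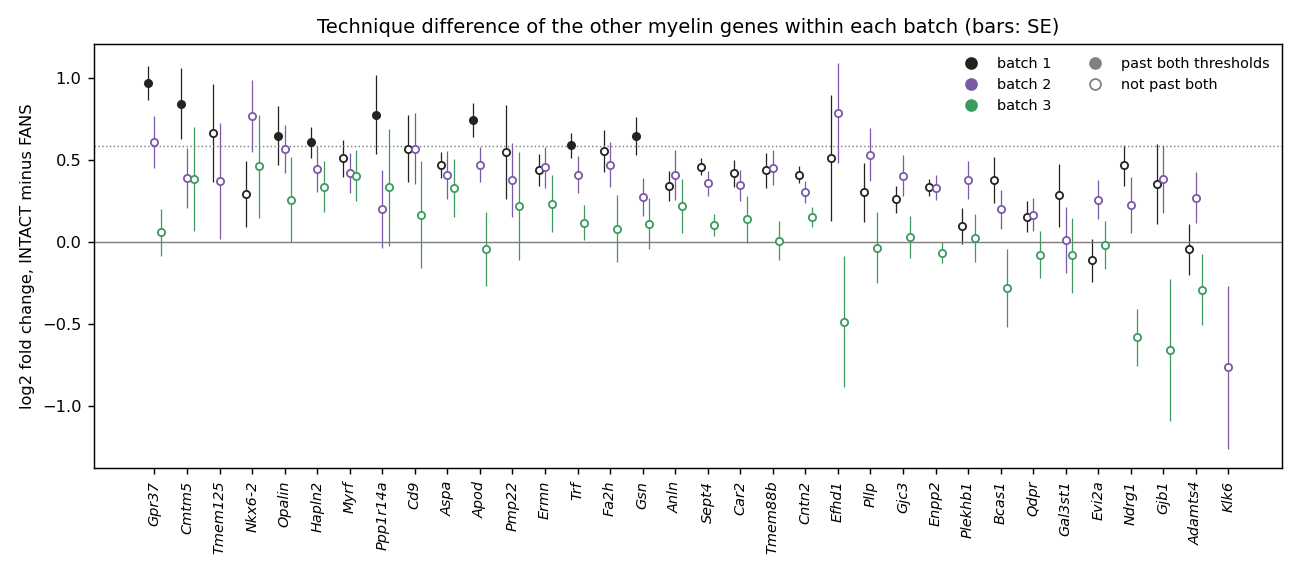
Log2 fold change, INTACT minus FANS, of each of the 34 other myelin genes in batches 1 (black), 2 (purple) and 3 (green), with its SE; filled points passed both thresholds, and the dotted line is the 1.5-fold threshold. The 8 filled points are all of batch 1, led by Gpr37 (0.96) and Cmtm5 (0.84).

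Whether the technique effect itself differed between batches was tested in one fit with an interaction term. Between batches 1 and 3 the effect differed for 8 of 32 other myelin genes at adjusted p below 0.05. That share was near the 23.3% of all 14332 genes tested that differed. The effects of all 8 lay more toward INTACT-nuclei in batch 1. That of Ndrg1 changed sign, with a log2 fold change of 0.47 in batch 1 and −0.58 in batch 3. The differences were 1.05 for Ndrg1 (adjusted p = 0.00154, limma), 0.91 for Gpr37 (adjusted p = 0.00297), 0.78 for Apod, 0.53 for Gsn, 0.47 for Trf, 0.40 for Enpp2, 0.36 for Sept4 and 0.26 for Cntn2. Leaving out 1 library gave 4 to 9 such genes, 4 without batch 1 FANS replicate 3, and 5 without batch 1 INTACT replicate 1, 2 or 3 or batch 3 INTACT replicate 3, 4 or 5. No gene of the list differed at adjusted p below 0.05 (limma) between batches 1 and 2, where 6.30% of all genes did. None differed between batches 2 and 3 either, where 0.0% of all genes did. Between batches 2 and 3 there was 1 without batch 2 FANS replicate 5 and 1 without batch 3 FANS replicate 7. Before adjustment none of the list passed p below 0.05 between batches 1 and 2, and 10 did between batches 2 and 3 (limma). The share of all genes that passed before adjustment is not given here. For the 9 members, given without a test, the median difference was 0.09 between batches 1 and 2, 0.41 between 1 and 3, and 0.39 between 2 and 3. For the rest of the list it was 0.08, 0.36 and 0.30. The batches each carried both techniques but differ in source and RNA quality, which cannot be told apart.

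Genes of other cells moved with technique in batch 1 as well. Of all tested genes, 4.03% were called higher and 3.94% lower in batch 1, 0.0941% and 0.0336% in batch 2, and 0.0139% and 0.346% in batch 3. Of astrocyte genes 8 of 14 were higher in INTACT-nuclei in batch 1 (median 0.80), and their summed level was 1018.9–1145.6 RPM in FANS and 1299.0–1335.7 in INTACT libraries. In batch 2 it was 1 of 13, with summed levels of 1023.2–1349.7 and 1206.9–1457.8, and in batch 3 none of 13, with 1308.7–1748.2 and 1404.3–1554.3. Inhibitory neuron genes were higher for 3 of 7 in batch 1, where they summed to 28.2–41.2 RPM in FANS and 48.7–54.7 in INTACT libraries, and for none in batches 2 and 3. Oligodendrocyte lineage regulators gave 1 of 6, 1 of 6 and 0 of 5, with summed levels of 52.4–58.5 and 62.8–68.4 RPM in batch 1, 49.1–83.6 and 79.3–92.9 in batch 2, and 14.8–25.0 and 20.5–25.7 in batch 3. Oligodendrocyte precursor genes gave 1 of 7, 0 of 6 and 0 of 5. Excitatory neuron genes gave 0 of 8 and general neuron genes 0 of 5 in each batch. Microglial genes gave 1 of 6 higher and 1 lower in batch 1 and vascular genes 2 of 4 higher and 1 lower, and neither list gave a call in batches 2 and 3. Over all libraries the microglial list summed to 38.7–64.2 RPM and the vascular list to 11.2–22.8 RPM, and 1 vascular gene, Kcnj8, a pericyte potassium channel, had no read in batch 2. No list gave a call in batch 3. The part of these cell types in the myelin differences was not tested.

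The members were then followed from library to library after removing the batch and technique means (log2 normalized count + 1). Over all 31 libraries the median correlation of the 36 gene pairs was r = 0.58, with a range of 0.17 (Mobp with Cnp) to 0.84 (Tspan2 with Ugt8a). The value came largely from batch 2. There the median was 0.81 over 11 libraries and every pair was above 0.5, while it was 0.28 over 8 libraries in batch 1 (24 of 36 pairs above 0) and 0.32 over 12 libraries in batch 3 (26 of 36). Without batch 2 it was 0.25. The libraries of a batch share 1 source and differ in depth, so these values describe the libraries and carry no p.

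In batch 2 the FANS libraries were spread the widest. The mean deviation of the 9 genes was 0.45 (log2) in replicate 5, 0.25 in replicate 4 and 0.16 in replicate 1, and it was −0.06, −0.20, −0.24 and −0.36 in replicates 2, 8, 7 and 6. The INTACT libraries of batch 2 lay at 0.13, 0.14, −0.14 and −0.13 in replicates 1 to 4. In batch 3 the widest deviations were −0.25 in FANS replicate 7, 0.15 in INTACT replicate 1 and −0.16 in INTACT replicate 4. Each gene's correlation with the mean of the other members was highest for Tspan2 (0.85), Ugt8a (0.83) and Mbp (0.82), and lowest for Mobp (0.57), Mog (0.57) and Cnp (0.49). In batch 1 Tspan2 and Cnp ran against the rest, at −0.55 and −0.59 over 8 libraries.

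**Figure D4:**
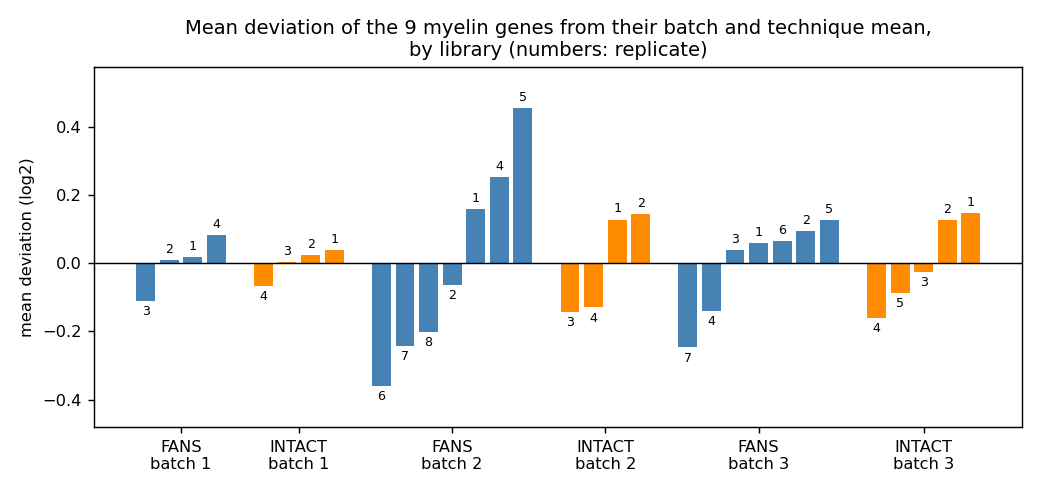
Mean deviation of the 9 myelin genes from their batch and technique means (log2), 1 bar per library, FANS in blue and INTACT in orange, numbered by replicate and sorted within each group. The widest group is FANS in batch 2, from −0.36 in replicate 6 to 0.45 in replicate 5.

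Likeness was measured over the 11884 genes whose mean reached 20 normalized counts in every batch. Among the 5 non-members most like the mean of the 9 over 31 libraries were Enpp2 (r = 0.86), Gpr37 (0.86), Trf (0.86) and Ttyh2 (0.83). Enpp2, Gpr37 and Trf are on the list of other myelin genes and Ttyh2, a chloride channel family gene, is on none of the lists used here. A correlation above 0.5 was found for 290 genes, 2.44% of those compared. The mean of the other myelin genes followed that of the 9 (Pearson's r = 0.89, Spearman's rho = 0.86), also without the 2 libraries farthest from the median (r = 0.82). Over all 31 libraries lineage regulators gave r = 0.70, and astrocyte genes (0.25), excitatory neuron genes (0.22) and precursor genes (0.01) followed much less. Single batches differed. In batch 1 other myelin genes gave 0.84, general neuron genes 0.83, astrocyte genes 0.75, precursor genes 0.63 and excitatory neuron genes −0.10. In batch 2 other myelin genes gave 0.99, and astrocyte, precursor and excitatory neuron genes 0.06, 0.06 and 0.12. In batch 3 they gave 0.70, and 0.54, −0.43 and 0.50. The number of reads on genes gave r = −0.29 over all libraries. The share of no-feature reads gave −0.42 over all libraries, and 0.31, −0.47 and −0.68 within batches 1, 2 and 3. The part of that share in the co-variation was not tested.

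ATAC-seq peaks within 3 kb of a start site were the remaining readout, from 1 source of nuclei and so with technical error only. Of the 9 genes, 8 had a peak in all 6 libraries, where 60.1% of 26180 genes did. Mal lacked one in INTACT replicate 2. That gave 9, 9 and 9 members with a peak in FANS libraries and 9, 8 and 9 in INTACT libraries, a mean difference of −0.33, given without a test. The libraries held 123596, 128910 and 130088 peaks for FANS and 113224, 99514 and 123895 for INTACT, and their read depth is unknown.

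The highest fold enrichment of a peak near each start, over the local background as the peak caller gives it, was 10.8, 12.9 and 15.0 for Mal in FANS libraries, and 9.42 and 7.39 in INTACT replicates 1 and 3. Mog had 12.7, 12.3 and 12.3 in FANS and 10.9, 9.45 and 11.8 in INTACT libraries. Mobp had 8.34, 9.70 and 10.1 against 7.67, 7.81 and 7.52, and Ugt8a 8.98, 9.13 and 9.38 against 7.59, 7.33 and 7.70. Mog, Mobp and Ugt8a were lower in every INTACT library, 3 of the 8 genes with a peak in all 6, where 53.7% of such genes were. None was higher in every one (1.82% of such genes). Cldn11 had 7.27, 7.44 and 9.15 against 5.95, 5.20 and 8.47, and Tspan2 6.54, 9.10 and 6.58 against 5.92, 5.36 and 7.15. Mag had 9.08, 7.96 and 9.31 against 7.90, 8.17 and 9.72. Cldn11, Tspan2 and Mag overlapped between techniques. For Mbp, at 6.08, 5.99 and 5.97 against 6.07, 5.62 and 7.39, and for Cnp, at 6.02, 6.06 and 7.16 against 5.82, 7.06 and 7.41, the INTACT mean was the higher one. The highest Mbp peak was not the same peak in every library: in FANS replicates 1 and 3 and INTACT replicates 1 and 3 its summit lay upstream of the Golli start, between −2801 and −2792 bases, and in replicate 2 of each technique it lay at the classic start.

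The mean over the 8 genes was 8.12, 8.46 and 8.75 in FANS libraries and 7.22, 6.999 and 8.39 in INTACT libraries, 8.44 ± 0.31 against 7.54 ± 0.75 (SD, n = 3 each). The difference was −0.90, given without a test, and it ranged from −1.33 to −0.75 with 1 library left out. Mal is not among the 8, since it lacked a peak in INTACT replicate 2; without that library the difference over the 9 genes was −1.06. The median log2 ratio of INTACT to FANS was −0.24 for the 8 genes and −0.22 for all 15747 genes with a peak in all 6 libraries, of which 91.5% had a lower mean in INTACT libraries (6 of the 8 did). Size and sign were thus near those over all genes. Peaks at the 8 genes were also low, with a median height of 7.80 against 13.1 for all such genes. Low peaks were not particular to the members. Over genes with a peak in any library, the median was 8.35 for the members and 9.14 for other myelin genes. It was 8.65 for general neuron genes and 6.47 for excitatory neuron genes.

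**Figure D5:**
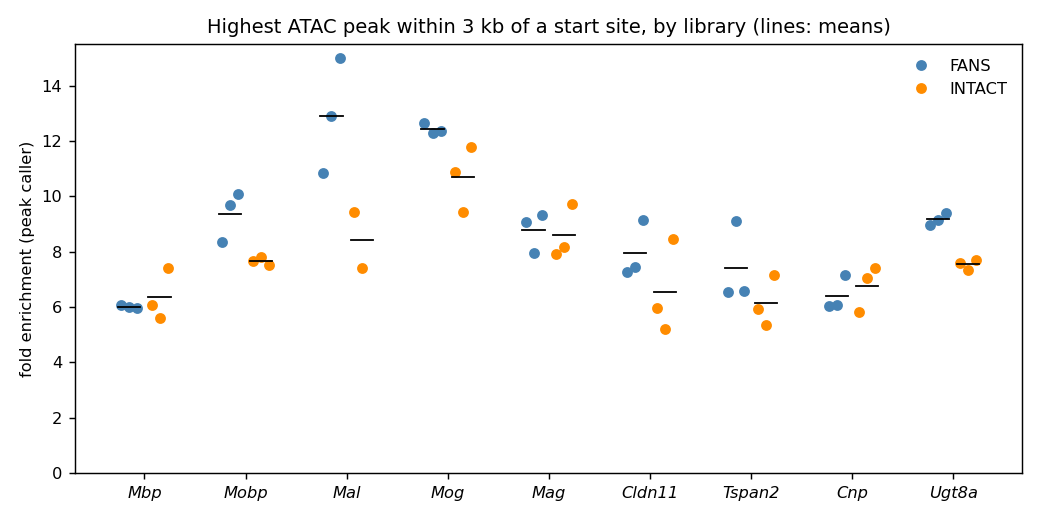
Highest fold enrichment of an ATAC peak within 3 kb of a start site of each myelin gene, 1 point per library (3 FANS in blue, 3 INTACT in orange), with lines at the means. Mal and Mog carry the highest peaks (up to 15.0 and 12.7), Mal has no point for INTACT replicate 2, and the INTACT points of Mobp, Mog and Ugt8a lie below all their FANS points.

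Where the peaks lay differed by gene. At Mog the summit stood 8 to 15 bases upstream of the start site in all 6 libraries, inside the printed window, in a peak 319 to 348 bases wide that reached beyond it. At Mobp it stood 86 to 238 bases upstream, next to or within the stretch that holds the 6 copies of the SOX motif, and at Mag from 45 bases upstream to 9 downstream of the outermost start site. The Mal summit instead lay 382 to 430 bases downstream of its start, outside the printed window. Summits stood 20 to 201 bases upstream at Cldn11 and between 266 upstream and 319 downstream at Ugt8a, where peaks were 1424 to 1579 bases wide. At Cnp they stood 171 to 227 bases upstream of the inner start site (chr11:100575891), and at Tspan2 54 to 346 bases downstream of the outer one. Mbp had peaks at both of its starts: at the classic start (chr18:82554463) with enrichments of 5.03 to 6.41 and at the Golli start (chr18:82475123) with 3.06 to 4.73.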

How the data were processed

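RNA-seq of 31 libraries and ATAC-seq of 6 were used. Per the study's methods, RNA reads were aligned to mm10 with STAR, duplicates were removed by molecular identifiers, and reads were counted per gene with HTSeq. The deposited RNA values (unit signal) are counts that the authors divided by a DESeq size factor per library within each batch; whole reads came out for 100% of 456363 values checked (up to 500 reads, tolerance 0.1). Batch 2 lists 8 FANS and 5 INTACT libraries; replicates FANS 3 and INTACT 5 were not analysed here. 5 rows that name no gene were left out of library sizes and tests and held 71.3–85.1% of reads as the no-feature row. ATAC reads were aligned with Bowtie2 and duplicates removed with Picard, and the authors deposited MACS2 peaks called per library, with fold enrichment (a ratio), −log10 p and q values and a score of 10 times −log10 q. Fold enrichment was used.

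Each batch was fitted in limma 3.58.1 (R 4.3.3; lmFit, eBayes with trend) on log2(normalized count + 1) for genes with a mean of at least 5, with technique as the term. Fold changes on this scale understate changes of low genes. Genes were called at an adjusted p (Benjamini-Hochberg) below 0.05 and 1.5-fold. The interaction fit used 14332 genes tested in all batches. For ATAC, exact permutation tests over 3 against 3 libraries were computed (Python 3.11.15, scipy 1.17.1), but no p is given, since the members were chosen with these data known and the smallest p possible is 0.1. edgeR 4.0.16 and DESeq2 1.42.0 on the recovered reads, other pseudocount, filter and scaling, and left-out libraries were alternatives. Scripts were tested on simulated data. The text names all 9 members; other myelin genes called in any batch, or among the 3 with the largest change in a batch; Sun1, Arc, Slc17a7 and Rbfox3; and the 5 genes most like the members' mean. Some genes of these lists and this ranking are not reported here, and counts of the lists are without them. Members and lists were chosen with earlier results of these data known.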

Additional observations from a re-analysis of the deposited data

Results flagged for a closer look

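Among 78 groups of libraries of 13 genes, 3 held a library far from the rest of its group, and chance alone would give about 1 in 20. Mal in FANS replicate 5 of batch 2 was the highest of its group at 669.63 normalized counts, with the next library at 430.08; leaving this library out, Mal was still called in batch 2. Arc in FANS replicate 6 of batch 2 was the lowest at 1189.72, with the next at 1307.01. Sun1 in INTACT replicate 2 of batch 3 was the highest at 1352.12, with the next at 1298.03.

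The technique effect lay more toward INTACT-nuclei in batch 1 than in batch 3, by a test of the difference (interaction term, limma, adjusted over all genes), for 8 of 32 other myelin genes, a share near the 23.3% of all 14332 genes tested that differed: Ndrg1 by 1.05 on the log2 scale (adjusted p = 0.00154), Gpr37 by 0.91 (0.00297), Apod by 0.78 (0.0333), Gsn by 0.53 (0.0463), Trf by 0.47 (0.0428), Enpp2 by 0.40 (0.00577), Sept4 by 0.36 (0.00757) and Cntn2 by 0.26 (0.0375). For Ndrg1 the effect changed sign, from 0.47 in batch 1 to −0.58 in batch 3. Source and RNA quality differ between the batches and cannot be told apart from one another.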

How the results depend on the processing

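Of 441 log2 fold changes of the 9 members under the alternatives, none moved by more than the mean SD within the groups (log2), but several moved by more than the standard error: with the replicate block in batch 2 Mobp went from 0.37 to 0.11, Mbp from 0.36 to 0.21 and Mog from 0.51 to 0.31. Mbp in batch 1, near 0, went down to −0.02. Named other myelin genes lost their call in 14 gene and setting combinations and gained one in 10. The 4 members called in batch 2 became 2, Cldn11 and Mal, under 75th percentile scaling, under edgeR, under DESeq2 and with the replicate block. Other myelin genes called higher in batch 2, none, became 1, Gpr37, with a pseudocount of 5, and 1 gene, Ndrg1, was called lower in batch 3 with the replicate block. The median pairwise correlation of 0.58 was 0.28 within batch 1 and 0.25 leaving out batch 2; the cause was not tested.

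Leaving out 1 library gave 5 to 7 members called in batch 1, 1 to 5 in batch 2 and 0 in batch 3, and 5 to 10, 0 to 4 and 0 other myelin genes called higher. Other myelin genes called lower were 0 to 1 in batch 3. Interaction counts were 4 to 9 for batches 1 and 3 and 0 to 1 for batches 2 and 3. The correlation ran from 0.49 to 0.62, the difference in members with an ATAC peak from −0.5 to 0.0, and the difference in fold enrichment from −1.33 to −0.75.

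Calls over all genes in batch 2, 14 higher and 5 lower, were 6 and 2 with DESeq2 and 4 and 0 with the block, and in batch 3, 2 and 50, they were 27 and 83 with the block. With 1 library left out they were 5 to 35 and 1 to 10 in batch 2 (35 and 25 higher without FANS replicates 5 and 4, 5 and 6 without INTACT replicates 1 and 2) and 0 to 8 and 32 to 64 in batch 3 (8 and 7 higher without FANS replicates 7 and 4, none without FANS replicate 1 or INTACT replicate 3 or 5). Correlations of deviations were taken between same-numbered FANS and INTACT libraries. They were −0.07 to −0.01, −0.06 to −0.004 and −0.03 to 0.11 in batches 1, 2 and 3. Of the 4, 3 and 5 FANS libraries with a same-numbered INTACT library, 0, 0 and 3 correlated best with their own number. Whether replicate numbers pair the libraries was not tested. Depth limits the low genes of batch 3 most, with 29 reads at the least, and ATAC depth is unknown.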
